A study of Danio rerio with 16 samples.

Results

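Genes of the dual-specificity phosphatase (dusp), Sprouty (spry) and Spred (spred) families were followed in heart ventricles of nr4a1 mutant and wild-type zebrafish, before injury and during regeneration after cryoinjury. They were taken by gene symbol, as names that begin with dusp, spry or spred and go on with a digit, provided that 2 samples or more had 10 counts or more. Of 29 such symbols, 27 passed this minimum among 18949 genes tested. dusp19a, with at most 1 count in a sample, and spred3, with at most 2, did not. The 27 comprise 4 inducible nuclear MAP kinase phosphatases (dusp1, dusp2, dusp4, dusp5), 2 cytoplasmic ERK phosphatases (dusp6, dusp7), 3 phosphatases of JNK and p38 (dusp8a, dusp10, dusp16), 3 Sprouty genes (spry1, spry2, spry4), 3 Spred genes (spred1, spred2a, spred2b) and 12 atypical dual-specificity phosphatases. These roles are those known mainly from mammals.

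MAP kinases carry signals from growth factor receptors (the Ras, Raf, MEK and ERK cascade) and from stress (JNK and p38) to the nucleus. Dual-specificity MAP kinase phosphatases remove phosphate from both the threonine and the tyrosine that switch a MAP kinase on, while Sprouty and Spred proteins restrain Ras and Raf upstream. Many of these genes are themselves switched on by ERK, so they act as negative feedback. In zebrafish hearts fibroblast growth factor and neuregulin signals act through this cascade, and Dusp6 is known as a restraint on it.

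The mutants carry the nc40 allele of nr4a1, a nuclear receptor gene, in which Cas9 left a 1 bp insertion in the second exon that brings a premature stop. Mutant and wild-type ventricles were collected without injury, called 0 dpci here, or 2, 7 or 21 days after cryoinjury (dpci, days post-cryoinjury), from adult fish of 0.5 to 1 year according to the methods. Cryoinjury kills part of the ventricle wall with a cooled probe. Each of the 8 conditions has 2 samples, 16 in all. The number of ventricles in a sample and whether the samples came from separate fish are not given, so p-values measure the spread between these samples, which may be technical. The study calls them biological replicates. Levels are CPM, counts relative to the TMM-scaled library total. They are comparable between samples, not between genes, because no gene length entered. A log2 fold change compares mutants with wild type, mutant on top, or, where 2 stages are named, the later stage with the earlier. A gene passed the test, and is said to be higher or lower, with a Benjamini-Hochberg adjusted p under 0.05 over all tested genes in edgeR's quasi-likelihood test and an absolute log2 fold change over 0.5. SE is the standard error implied by that test, the absolute log2 fold change before edgeR's shrinkage divided by the square root of the F statistic. The log2 fold changes printed are those after shrinkage. A call is said to be lost without a sample where it then missed the adjusted p or the fold, and the value without the sample follows in parentheses. In those fits the sample left alone in its condition was assumed to vary like those of the other conditions.

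Total counts per sample lay between 14333475 and 23618958 in mutants and between 15765709 and 27668498 in wild type. The samples of a condition lay close together, with a common biological coefficient of variation of 3.42% over all genes. nr4a1 itself was still counted in mutants, with log2 fold changes of 1.43, −0.04, −0.68 and 0.27 from the first to the last stage, which checks no genotype because reads of both alleles count for the gene. The hour of collection is not given, and the clock gene per1a differed between genotypes by 3.59, 0.71, 4.35 and −2.0 at the 4 stages in turn. Its part in the results was not tested.

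The uninjured ventricle was the stage with the largest number of genotype differences among these genes, as it was among all tested genes. Mutants at 0 dpci had higher levels of 8 of the 27 genes, when 11.9% of all tested genes were, and 1 was lower, when 11.8% were. The higher genes were dusp1, dusp2, dusp4, dusp8a, dusp10, dusp16, dusp28 and spry4, and the lower gene was dusp13a. At 2 dpci 1 gene was higher (dusp8a, against 8.35% of all genes) and 2 were lower (dusp13a and dusp28, against 8.5%). At 7 dpci 2 were higher (dusp10 and dusp3b, against 7.03%) and 1 was lower (dusp5, against 5.94%). At 21 dpci 1 was higher (dusp2, against 9.49%) and 3 were lower (dusp4, dusp8a and dusp16, against 6.83%). In counts of either direction, 9 of 27 at 0 dpci stood against 23.7% of all genes, 3 at 2 dpci against 16.8%, 3 at 7 dpci against 13% and 4 at 21 dpci against 16.3%, so the counts after injury were near or below the share of all genes. The samples of the 2 genotypes did not overlap for 21, 19, 18 and 20 of the 27 genes at the 4 stages in turn, against 69.8%, 65.3%, 59.2% and 65.3% of all genes. Over the 4 stages 11 of the 27 genes passed at least once, against 43.4% of all genes, and 4 of them (dusp4, dusp8a, dusp16, dusp28) were higher at one stage and lower at another, against 5.1% of all genes. The calls of dusp4 and dusp28 at 0 dpci depended on single samples, as given below. When glmTreat tested the fold threshold within the model, only dusp8a of these genes kept calls in both directions. The share of all genes was not computed in that setting. With a bulk tissue, fewer cells of a type and less RNA per cell cannot be told apart.

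**Figure D1:**
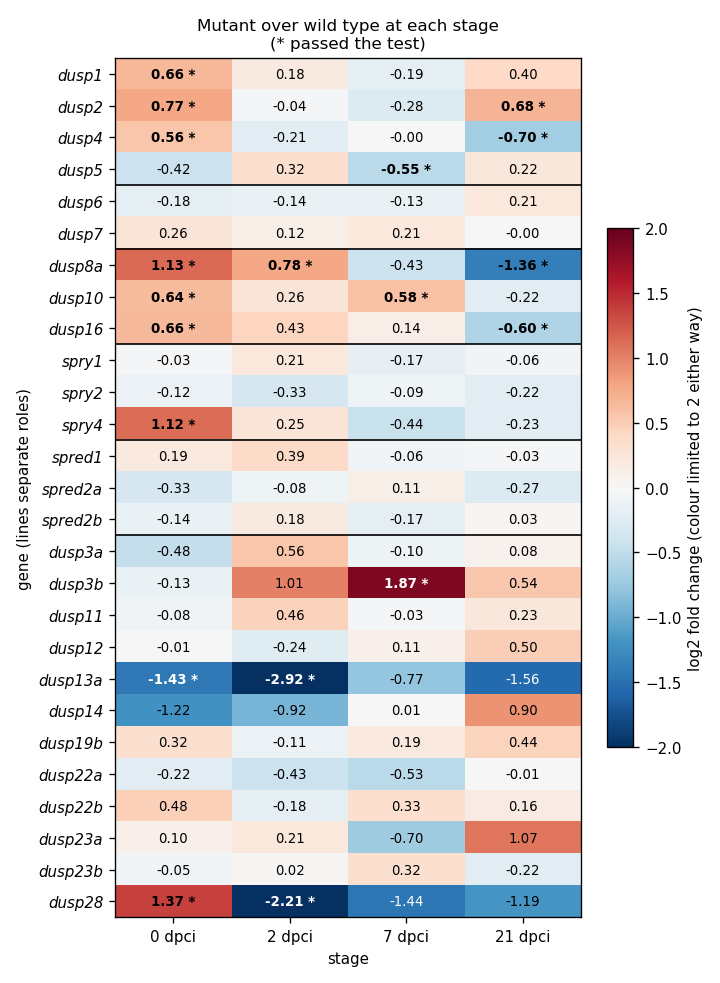
Log2 fold change of mutant over wild type for the 27 genes (rows, grouped by role) at 0, 2, 7 and 21 dpci (columns), with colour for the value and an asterisk and bold type where the gene passed the test. The 0 dpci column holds 9 asterisks, and dusp8a runs from 1.13 at 0 dpci through 0.78 and −0.43 to −1.36 at 21 dpci.

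Among the inducible nuclear phosphatases, dusp1, dusp2 and dusp4 were higher in uninjured mutant ventricles, while dusp5 was under the fold threshold at that stage. dusp1 encodes a nuclear phosphatase of p38, JNK and ERK that is induced by stress and glucocorticoids. Its levels were 78.6 and 72.8 CPM in mutants and 45.6 and 50.2 in wild type (0 dpci), and 209 and 206 CPM in mutants and 184 and 181 in wild type (2 dpci). Later they were 297 and 298 CPM in mutants and 334 and 344 in wild type (7 dpci), and 194 and 199 CPM in mutants and 151 and 147 in wild type (21 dpci). The genotypes did not overlap at any stage, with mutants above wild type at 0, 2 and 21 dpci and below it at 7 dpci. The log2 fold change was 0.66 (SE 0.0499, edgeR adjusted p = 3.80e-19) at 0 dpci. After injury it was 0.18 at 2 dpci (edgeR adjusted p = 0.000201), −0.19 at 7 dpci (edgeR adjusted p = 8.25e-05) and 0.40 at 21 dpci (edgeR adjusted p = 9.28e-13), each under the fold threshold. dusp1 was higher at 2 dpci than at 0 dpci in both genotypes, with a log2 fold change of 1.45 (SE 0.0444, edgeR adjusted p = 2.09e-42) in mutants and 1.93 (SE 0.0465, edgeR adjusted p = 7.47e-49) in wild type. The genotype difference at 7 dpci minus that at 0 dpci was −0.85 (SE 0.0633, edgeR adjusted p = 7.40e-19).

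dusp2, known in mammals as an early gene of activated immune cells, had the largest change after injury among the 27 genes in wild type. It stood at 4.08 and 3.75 CPM in mutants and 1.45 and 3.17 in wild type (0 dpci), and 24.0 and 27.2 CPM in mutants and 26.7 and 26.1 in wild type (2 dpci). Further on it stood at 33.9 and 33.4 CPM in mutants and 39.3 and 42.1 in wild type (7 dpci), and 15.6 and 14.6 CPM in mutants and 10.4 and 8.29 in wild type (21 dpci). Mutant samples lay above wild type at 0 and 21 dpci and below it at 7 dpci, and overlapped with it at 2 dpci. The log2 fold change between genotypes was 0.77 (SE 0.204, edgeR adjusted p = 0.00124) at 0 dpci and 0.68 (SE 0.125, edgeR adjusted p = 6.81e-06) at 21 dpci. The call at 0 dpci rested on low wild-type counts (35 and 74) and was lost without wild-type sample 1 at 0 dpci (0.31), whereas without wild-type sample 2 at 0 dpci the value was 1.43. Between 0 and 2 dpci dusp2 was higher at 2 dpci with a log2 fold change of 2.71 (SE 0.133, edgeR adjusted p = 7.79e-30) in mutants and 3.52 (SE 0.142, edgeR adjusted p = 8.09e-35) in wild type. From 7 to 21 dpci it was lower at 21 dpci with a log2 fold change of −1.16 (SE 0.102, edgeR adjusted p = 2.52e-16) in mutants and −2.11 (SE 0.109, edgeR adjusted p = 2.27e-28) in wild type. The difference between genotypes changed from that at 0 dpci, by −0.81 (SE 0.226, edgeR adjusted p = 0.00286) at 2 dpci and by −1.05 (SE 0.223, edgeR adjusted p = 0.000145) at 7 dpci. Both calls were lost without wild-type sample 1 at 0 dpci (−0.35 at 2 dpci and −0.58 at 7 dpci).

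dusp4, whose protein acts on ERK and JNK in the nucleus, turned round between the uninjured heart and the latest stage. The samples held 20.7 and 21.3 CPM in mutants and 12.9 and 15.7 in wild type (0 dpci), and 13.3 and 11.6 CPM in mutants and 14.2 and 14.5 in wild type (2 dpci). They held 18.1 and 20.5 CPM in mutants and 19.0 and 19.6 in wild type (7 dpci), and 17.8 and 18.1 CPM in mutants and 28.3 and 30.1 in wild type (21 dpci). Both mutant samples were above both wild-type samples at 0 dpci and below them at 21 dpci. The log2 fold change was 0.56 (SE 0.0965, edgeR adjusted p = 1.35e-06) at 0 dpci and −0.70 (SE 0.0936, edgeR adjusted p = 2.38e-09) at 21 dpci, and the test of the change between these stages gave −1.26 (SE 0.134, edgeR adjusted p = 1.30e-12). The call at 0 dpci was lost without wild-type sample 1 at 0 dpci (0.42). In wild type dusp4 was higher at 21 than at 7 dpci with a log2 fold change of 0.60 (SE 0.0925, edgeR adjusted p = 6.09e-08), and the same step in mutants was −0.10 (edgeR adjusted p = 0.41).

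dusp5 encodes a nuclear phosphatase specific for ERK. Its values were 11.3 and 10.6 CPM in mutants and 15.8 and 13.6 in wild type (0 dpci), and 28.3 and 28.2 CPM in mutants and 20.8 and 24.5 in wild type (2 dpci). At the later stages they were 24.8 and 20.6 CPM in mutants and 34.5 and 32.4 in wild type (7 dpci), and 13.7 and 14.6 CPM in mutants and 12.5 and 11.8 in wild type (21 dpci). Mutant samples lay above wild type at 2 and 21 dpci and below it at 0 and 7 dpci, without overlap at any stage. Only at 7 dpci did the difference pass the test, at −0.55 (SE 0.0901, edgeR adjusted p = 9.73e-07). That call was lost without mutant sample 2 at 7 dpci (−0.42) or wild-type sample 1 at 7 dpci (−0.49). At the other stages the log2 fold change was −0.42 at 0 dpci (edgeR adjusted p = 0.000798), 0.32 at 2 dpci (edgeR adjusted p = 0.00387) and 0.22 at 21 dpci (edgeR adjusted p = 0.13). The stage of the highest mean was 2 dpci in mutants and 7 dpci in wild type. Relative to 0 dpci, the genotype difference was 0.74 (SE 0.141, edgeR adjusted p = 1.49e-05) higher on the log2 scale at 2 dpci and 0.64 (SE 0.156, edgeR adjusted p = 0.000533) higher at 21 dpci.

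**Figure D2:**
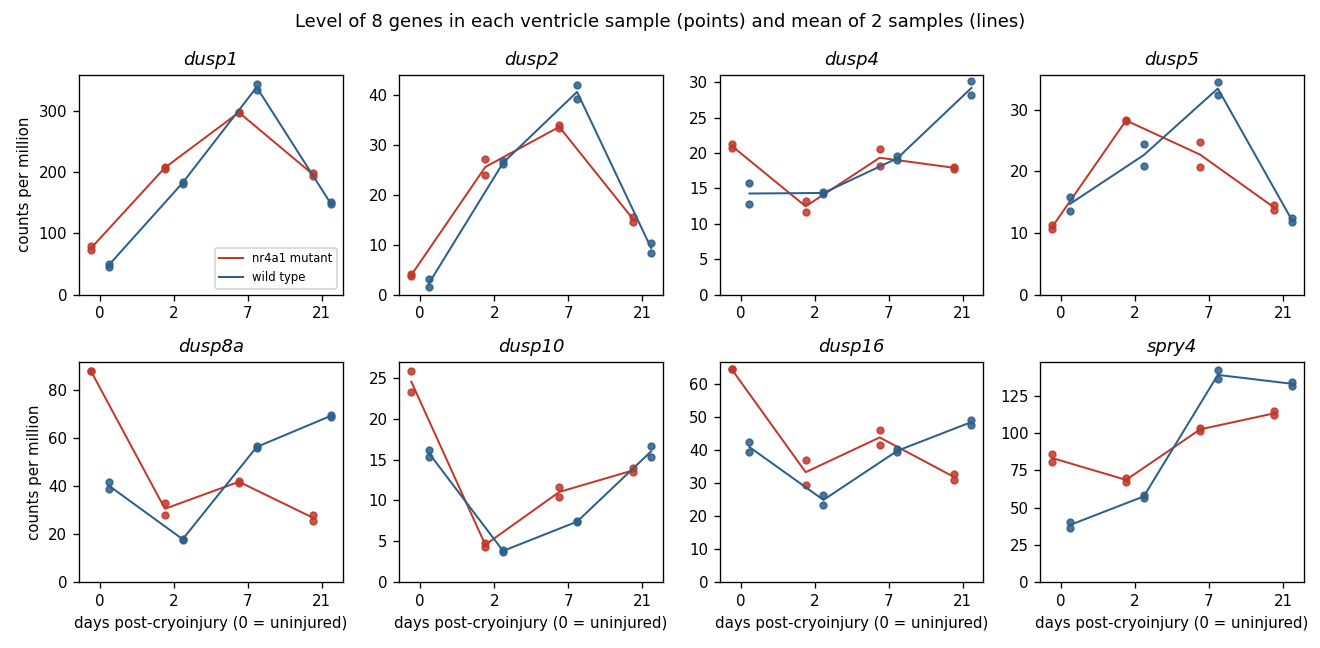
Level in CPM (vertical axes, each from 0) of 8 genes in every sample (points) with the mean of the 2 samples of a condition (lines) at 0, 2, 7 and 21 days post-cryoinjury, in nr4a1 mutants (red, left of each pair) and wild type (blue, right). All genes but dusp5 start higher in mutants at 0 dpci. For dusp4, dusp8a, dusp10, dusp16 and spry4 the wild-type points lie above the mutant points at 21 dpci.

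The cytoplasmic ERK phosphatases dusp6 and dusp7 differed little between genotypes. Over the 4 stages dusp6, the feedback phosphatase of ERK, had log2 fold changes of −0.18, −0.14, −0.13 and 0.21, with an SE of at most 0.0417 and edgeR adjusted p of 0.000334, 0.00505, 0.00993 and 3.19e-05. These differences exceeded the spread between samples but were under the fold threshold. In CPM, dusp6 stood at 159 and 149 CPM in mutants and 172 and 176 in wild type (0 dpci), and 230 and 237 CPM in mutants and 198 and 207 in wild type (21 dpci). The mutant samples lay below wild type at 0 dpci and above it at 21 dpci, and the test of that change gave 0.38 (SE 0.0585, edgeR adjusted p = 1.11e-07). dusp6 was higher at 21 than at 0 dpci in mutants with a log2 fold change of 0.60 (SE 0.0414, edgeR adjusted p = 4.78e-21), and the value in wild type was 0.22 (edgeR adjusted p = 7.48e-06), under the fold threshold. For dusp7, its close relative, the genotype differences lay between −0.000482 at 21 dpci and 0.26 at 0 dpci. The change between these stages was −0.26 (SE 0.0886, edgeR adjusted p = 0.0141), a call lost without mutant sample 1 at 0 dpci (−0.20) or mutant sample 1 at 21 dpci (−0.20) or wild-type sample 1 at 0 dpci (−0.24) or wild-type sample 1 at 21 dpci (−0.22).

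All 3 phosphatases of JNK and p38 were higher in mutants at 0 dpci, and 2 of them were lower in mutants at 21 dpci. dusp8a had the largest difference among the 15 genes outside the atypical class. Its samples gave 87.7 and 87.8 CPM in mutants and 41.7 and 38.7 in wild type (0 dpci), and 28.1 and 33.0 CPM in mutants and 17.8 and 18.0 in wild type (2 dpci). They then gave 42.2 and 41.3 CPM in mutants and 55.8 and 56.6 in wild type (7 dpci), and 28.0 and 25.6 CPM in mutants and 68.5 and 69.7 in wild type (21 dpci). Mutant samples lay above wild type at 0 and 2 dpci and below it at 7 and 21 dpci, without overlap at any stage. The log2 fold change was 1.13 (SE 0.0592, edgeR adjusted p = 2.13e-27) at 0 dpci and 0.78 (SE 0.0804, edgeR adjusted p = 4.52e-13) at 2 dpci. It was −0.43 at 7 dpci (edgeR adjusted p = 1.03e-07), under the fold threshold, and −1.36 (SE 0.0669, edgeR adjusted p = 7.27e-29) at 21 dpci. The difference at 21 dpci minus that at 0 dpci was −2.49 (SE 0.0893, edgeR adjusted p = 5.06e-37). At 7 dpci the change from 0 dpci was −1.56 (SE 0.0876, edgeR adjusted p = 3.65e-25). At 2 dpci it was −0.35 (SE 0.101, edgeR adjusted p = 0.00435), a call lost without mutant sample 1 at 2 dpci (−0.22).

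In wild type dusp8a was lower at 2 than at 0 dpci with a log2 fold change of −1.17 (SE 0.0749, edgeR adjusted p = 2.22e-23) and higher at 7 than at 2 dpci with a log2 fold change of 1.65 (SE 0.073, edgeR adjusted p = 8.21e-32). At 21 dpci it was above its level at 0 dpci with a log2 fold change of 0.78 (SE 0.0616, edgeR adjusted p = 2.32e-18). In mutants it was lower at 2 than at 0 dpci with a log2 fold change of −1.52 (SE 0.0638, edgeR adjusted p = 7.74e-34), and the step from 2 to 7 dpci was 0.45 (edgeR adjusted p = 1.96e-07). At 21 dpci it remained below its level at 0 dpci, with a log2 fold change of −1.71 (SE 0.0644, edgeR adjusted p = 6.10e-36). In the average over the 4 stages these opposite differences gave 0.03 (SE 0.0344, edgeR adjusted p = 0.542). dusp8a and dusp10 each overlap a long non-coding gene in the RefSeq annotation of a later assembly, and the strand setting of the counting is not given, so reads of the overlapping genes may not have been told apart.

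dusp16, which holds JNK and p38 in check in mammals, moved much as dusp8a did but over a smaller range. Its levels were 64.5 and 64.4 CPM in mutants and 42.3 and 39.5 in wild type (0 dpci), and 29.5 and 37.1 CPM in mutants and 23.4 and 26.4 in wild type (2 dpci). Afterwards they were 41.5 and 46.1 CPM in mutants and 40.3 and 39.3 in wild type (7 dpci), and 31.0 and 32.9 CPM in mutants and 49.2 and 47.7 in wild type (21 dpci). The mutant samples were above the wild-type samples at 0, 2 and 7 dpci and below them at 21 dpci. The log2 fold change was 0.66 (SE 0.0661, edgeR adjusted p = 1.18e-13) at 0 dpci and −0.60 (SE 0.0737, edgeR adjusted p = 1.57e-10) at 21 dpci, and the change between these stages was −1.26 (SE 0.099, edgeR adjusted p = 3.55e-18). At 2 dpci it was 0.43 (edgeR adjusted p = 1.23e-05) and at 7 dpci 0.14 (edgeR adjusted p = 0.169). At 2 dpci the gene was lower than at 0 dpci in both genotypes, with a log2 fold change of −0.94 (SE 0.0704, edgeR adjusted p = 4.34e-20) in mutants and −0.71 (SE 0.0762, edgeR adjusted p = 3.29e-13) in wild type.

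dusp10, a phosphatase of JNK and p38 that limits inflammatory cytokine output in mammals, had the widest step from 0 to 2 dpci of its class. It held 25.8 and 23.3 CPM in mutants and 15.4 and 16.2 in wild type (0 dpci), and 4.37 and 4.8 CPM in mutants and 3.91 and 3.75 in wild type (2 dpci). It held 11.7 and 10.4 CPM in mutants and 7.34 and 7.48 in wild type (7 dpci), and 13.4 and 14.0 CPM in mutants and 15.3 and 16.7 in wild type (21 dpci). Mutant samples lay above wild type at the first 3 stages and below it at 21 dpci. The differences at 0 dpci, 0.64 (SE 0.0994, edgeR adjusted p = 1.25e-07), and at 7 dpci, 0.58 (SE 0.13, edgeR adjusted p = 0.00028), passed the test. Those at 2 dpci (0.26, edgeR adjusted p = 0.253) and 21 dpci (−0.22, edgeR adjusted p = 0.121) did not. At 2 against 0 dpci the value was −2.41 (SE 0.127, edgeR adjusted p = 3.07e-28) in mutants and −2.04 (SE 0.136, edgeR adjusted p = 1.78e-22) in wild type. At 21 dpci wild type was back near its level at 0 dpci (0.02, edgeR adjusted p = 0.911), while mutants were lower than at 0 dpci with a log2 fold change of −0.84 (SE 0.104, edgeR adjusted p = 1.71e-10). The test of that difference between genotypes gave −0.86 (SE 0.149, edgeR adjusted p = 1.97e-06).

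**Figure D3:**
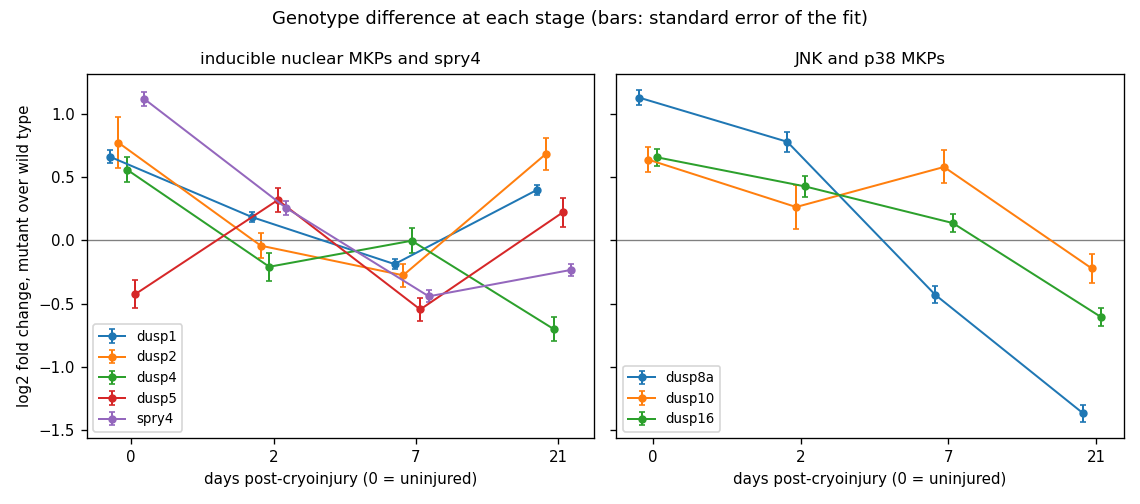
Log2 fold change of mutant over wild type (vertical axis, same in both panels) at 0, 2, 7 and 21 days post-cryoinjury for the inducible nuclear phosphatases and spry4 (left) and the JNK and p38 phosphatases (right), with bars for the SE implied by the test. All genes but dusp5 lie above 0 at 0 dpci, and at 21 dpci dusp8a (−1.36), dusp16 (−0.60) and dusp4 (−0.70) lie furthest below it.

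Of the Sprouty genes, which encode feedback inhibitors of receptor tyrosine kinase signalling, spry4 passed the test between genotypes. Its levels were 80.7 and 85.8 CPM in mutants and 40.3 and 36.3 in wild type (0 dpci), and 67.3 and 69.9 CPM in mutants and 58.7 and 56.3 in wild type (2 dpci). They went on at 101 and 104 CPM in mutants and 136 and 142 in wild type (7 dpci), and 112 and 115 CPM in mutants and 134 and 132 in wild type (21 dpci). The mutant samples were above wild type at 0 and 2 dpci and below it at 7 and 21 dpci, without overlap. The log2 fold change was 1.12 (SE 0.0542, edgeR adjusted p = 2.22e-29) at 0 dpci. It was 0.25 at 2 dpci (edgeR adjusted p = 0.000106), −0.44 at 7 dpci (edgeR adjusted p = 3.59e-12) and −0.23 at 21 dpci (edgeR adjusted p = 4.29e-05), each under the fold threshold. Relative to the difference at 0 dpci, these were changes of −0.86 (SE 0.0773, edgeR adjusted p = 1.60e-15), −1.56 (SE 0.0724, edgeR adjusted p = 1.00e-29) and −1.35 (SE 0.0721, edgeR adjusted p = 6.44e-27) at 2, 7 and 21 dpci in turn. From 0 to 21 dpci the level of spry4 changed by 0.44 in mutants (edgeR adjusted p = 3.83e-12), under the fold threshold, and by 1.79 (SE 0.0526, edgeR adjusted p = 1.09e-42) in wild type. spry1 and spry2 had genotype differences between −0.33 and 0.21, all under the fold threshold. For spry2 the value at 2 dpci was −0.33 (SE 0.0706, edgeR adjusted p = 8.23e-05), and spry1 stood between 2.64 and 4.81 CPM in all samples.

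The Spred genes encode membrane proteins that bring neurofibromin to Ras and so lower its activity. Their genotype differences stayed between −0.33 (spred2a at 0 dpci, edgeR adjusted p = 7.25e-05) and 0.39 (spred1 at 2 dpci, edgeR adjusted p = 1.13e-06), under the fold threshold throughout. spred1 stood at 46.6 and 45.7 CPM in mutants and 36.5 and 34.0 in wild type (2 dpci), a separation of the genotypes without overlap. At 2 dpci spred2a was lower than at 0 dpci in both genotypes, with a log2 fold change of −0.55 (SE 0.0806, edgeR adjusted p = 1.06e-08) in mutants and −0.80 (SE 0.076, edgeR adjusted p = 2.96e-15) in wild type. The mutant call was lost without mutant sample 2 at 0 dpci (−0.49) or mutant sample 2 at 2 dpci (−0.39). spred1 was lower at 2 than at 0 dpci in wild type with a log2 fold change of −0.66 (SE 0.0626, edgeR adjusted p = 3.58e-15), and the value in mutants was −0.46 (edgeR adjusted p = 5.58e-10), just under the fold threshold. spred2b, whose paralog is spred2a, ranged from 18.0 to 30.5 CPM.

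The 12 atypical dual-specificity phosphatases lack the domain that docks MAP kinases, and 3 of them (dusp13a, dusp28 and dusp3b) passed the test between genotypes, all at low counts. dusp13a, whose mammalian relatives are known from muscle and testis, was lower in mutants at 0 and 2 dpci. It was counted 10 and 13 times in mutants and 26 and 45 times in wild type at 0 dpci, or 0.475 and 0.633 CPM in mutants and 1.07 and 1.93 in wild type (0 dpci). The counts at 2 dpci were 1 and 2 in mutants and 17 and 8 in wild type, or 0.0583 and 0.0999 CPM in mutants and 0.898 and 0.411 in wild type (2 dpci). The later levels were 0.361 and 0.19 CPM in mutants and 0.355 and 0.588 in wild type (7 dpci), and 0.149 and 0.354 CPM in mutants and 0.949 and 0.537 in wild type (21 dpci). The genotypes overlapped at 7 dpci only. At 0 dpci the log2 fold change was −1.43 (SE 0.482, edgeR adjusted p = 0.0117), and the call was lost without mutant sample 1 at 0 dpci (−1.23) or wild-type sample 2 at 0 dpci (−0.95) and with DESeq2 (adjusted p = 0.0575). The mutant to wild-type ratio of counts at 2 dpci, scaled for library size, was 0.124 (95% exact counting interval 0.0239 to 0.406), with an edgeR adjusted p of 0.0033, and this call was lost without wild-type sample 1 at 2 dpci (−2.26). Over the 4 stages together dusp13a was lower in mutants with a log2 fold change of −1.67 (SE 0.342, edgeR adjusted p = 2.32e-05).

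dusp28 was higher in mutants at 0 dpci and lower at 2 dpci, at counts of at most 22 in a sample. The samples held 18 and 14 counts in mutants and 7 and 7 in wild type at 0 dpci, and 3 and 5 in mutants and 22 and 17 in wild type at 2 dpci. In CPM these were 0.854 and 0.682 CPM in mutants and 0.289 and 0.299 in wild type (0 dpci), and 0.175 and 0.25 CPM in mutants and 1.16 and 0.874 in wild type (2 dpci). They were 0.309 and 0.127 CPM in mutants and 0.829 and 0.462 in wild type (7 dpci), and 0.495 and 0.455 CPM in mutants and 1.16 and 1.01 in wild type (21 dpci) later on. Mutant samples lay above wild type at 0 dpci and below it at the 3 injured stages. The call at 0 dpci, 1.37 (SE 0.567, edgeR adjusted p = 0.0411), was lost without mutant sample 1 at 0 dpci (1.19) or mutant sample 2 at 0 dpci (1.52) or wild-type sample 1 at 0 dpci (1.34) or wild-type sample 2 at 0 dpci (1.39). With DESeq2 in place of edgeR the 0 dpci value had an adjusted p of 0.0886. The difference at 2 dpci was −2.21 (SE 0.617, edgeR adjusted p = 0.00246), with a count ratio of 0.212 (95% exact counting interval 0.0855 to 0.46), and the test of the change from 0 to 2 dpci gave −3.58 (SE 0.841, edgeR adjusted p = 0.000336). In mutants dusp28 was lower at 2 than at 0 dpci with a log2 fold change of −1.81 (SE 0.64, edgeR adjusted p = 0.0101), whereas in wild type it was higher with a log2 fold change of 1.77 (SE 0.548, edgeR adjusted p = 0.00365). The mutant call was lost without mutant sample 1 at 0 dpci (−1.64) or mutant sample 1 at 2 dpci (−1.55). On average over the stages dusp28 was lower in mutants with a log2 fold change of −0.87 (SE 0.307, edgeR adjusted p = 0.0146), and dusp13a and dusp28 were the 2 of 27 genes that passed in that average. Of all genes 5.82% were lower and 7.69% higher in it.

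dusp3b, which had at most 13 counts in a sample and less than 1 CPM throughout, was higher in mutants at 7 dpci with a log2 fold change of 1.87 (SE 0.727, edgeR adjusted p = 0.0415) on 12 and 11 counts in mutants and 5 and 2 in wild type. The count ratio was 3.8 (95% exact counting interval 1.58 to 10.5). Without mutant sample 1 at 7 dpci (1.98) or mutant sample 2 at 7 dpci (1.80) or wild-type sample 2 at 7 dpci (1.14) the call was lost. Its paralog dusp3a, a small phosphatase that acts on ERK and JNK in mammals, was better counted and differed by less. It gave 2.66 and 3.41 CPM in mutants and 4.59 and 3.85 in wild type (0 dpci), and 2.21 and 1.6 CPM in mutants and 1.43 and 1.13 in wild type (2 dpci). It gave 2.27 and 2.22 CPM in mutants and 2.78 and 2.1 in wild type (7 dpci), and 4.41 and 4.55 CPM in mutants and 3.95 and 4.53 in wild type (21 dpci). The mutant samples lay below wild type at 0 dpci and above it at 2 dpci, and overlapped with it at 7 and 21 dpci. In wild type dusp3a was lower at 2 than at 0 dpci with a log2 fold change of −1.72 (SE 0.256, edgeR adjusted p = 1.59e-08) and in mutants with a log2 fold change of −0.68 (SE 0.255, edgeR adjusted p = 0.017). The mutant call was lost without mutant sample 2 at 0 dpci (−0.49) or mutant sample 2 at 2 dpci (−0.42). The change of the genotype difference from 0 to 2 dpci, 1.04 (SE 0.372, edgeR adjusted p = 0.0226), was lost without mutant sample 1 at 0 dpci (0.87) or mutant sample 1 at 2 dpci (0.83) or wild-type sample 1 at 0 dpci (0.91) or wild-type sample 2 at 2 dpci (0.90).

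dusp14, an inhibitor of T-cell receptor signalling in mammals, was higher at 2 than at 0 dpci in both genotypes. The values were 0.332 and 0.292 CPM in mutants and 0.951 and 0.513 in wild type (0 dpci), and 0.991 and 0.75 CPM in mutants and 1.64 and 1.65 in wild type (2 dpci). They were 2.42 and 1.65 CPM in mutants and 1.42 and 2.56 in wild type (7 dpci), and 1.24 and 0.657 CPM in mutants and 0.422 and 0.597 in wild type (21 dpci). Mutant samples lay below wild type at 0 and 2 dpci and above it at 21 dpci, and the genotypes overlapped at 7 dpci. The genotype differences did not pass the test (−1.22 at 0 dpci, edgeR adjusted p = 0.0561, and 0.90 at 21 dpci, edgeR adjusted p = 0.155). The change between these stages, 2.12 (SE 0.73, edgeR adjusted p = 0.0154), did, and was lost without mutant sample 1 at 21 dpci (1.59) or wild-type sample 1 at 0 dpci (1.61) or wild-type sample 1 at 21 dpci (1.88). In wild type dusp14 was higher at 2 than at 0 dpci with a log2 fold change of 1.15 (SE 0.395, edgeR adjusted p = 0.0090), a call lost without wild-type sample 2 at 0 dpci (0.78). In mutants the same step was 1.45 (SE 0.543, edgeR adjusted p = 0.0158), lost without mutant sample 1 at 0 dpci (1.54) or mutant sample 2 at 0 dpci (1.36) or mutant sample 1 at 2 dpci (1.29). It was lower at 21 than at 7 dpci with a log2 fold change of −2.01 (SE 0.434, edgeR adjusted p = 4.90e-05) in wild type.

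dusp12, an atypical phosphatase with a zinc-binding domain, varied little between genotypes. Its levels were 2.9 and 3.17 CPM in mutants and 2.89 and 3.21 in wild type (0 dpci), and 3.5 and 3.8 CPM in mutants and 3.49 and 5.14 in wild type (2 dpci). They were 2.42 and 2.28 CPM in mutants and 1.6 and 2.65 in wild type (7 dpci), and 3.02 and 3.69 CPM in mutants and 2.58 and 2.15 in wild type (21 dpci). The genotypes overlapped at the first 3 stages, and at 21 dpci mutants were above wild type at a log2 fold change of 0.50 that did not pass (edgeR adjusted p = 0.12). In wild type dusp12 was lower at 7 than at 2 dpci with a log2 fold change of −0.98 (SE 0.238, edgeR adjusted p = 0.000446). dusp11, which encodes an RNA phosphatase, was higher at 2 than at 0 dpci in mutants with a log2 fold change of 0.62 (SE 0.12, edgeR adjusted p = 5.92e-06), a call lost without mutant sample 1 at 2 dpci (0.44). dusp22b, the zebrafish counterpart of a JNK pathway phosphatase, stood at 47.6 and 47.4 CPM in mutants and 34.4 and 33.7 in wild type (0 dpci). The genotypes of dusp22b did not overlap there, at a log2 fold change just under the threshold, 0.48 (SE 0.0668, edgeR adjusted p = 5.77e-09). The genotype difference of dusp22b at 2 dpci minus that at 0 dpci was −0.66 (SE 0.0992, edgeR adjusted p = 6.86e-08). dusp19b, dusp22a, dusp23a and dusp23b did not pass the test between genotypes at any stage, with log2 fold changes between −0.70 and 1.07, the widest being those of dusp23a at 3 to 18 counts per sample. How reads that align to both genes of a pair (dusp3a and dusp3b, dusp22a and dusp22b, dusp23a and dusp23b, spred2a and spred2b) were counted is not given in the sources used here. Besides dusp8a and dusp10, the genes dusp13a, dusp14, dusp19b, dusp23b, spred2a and spred2b overlap another gene in that RefSeq annotation.

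At 2 against 0 dpci 15 of the 27 genes passed the test in mutants (45.2% of all genes) and 15 in wild type (41.9%). In this step 5 were higher in mutants (24.4% of all genes) and 10 lower (20.8%), against 7 higher (22.9%) and 8 lower (19%) in wild type. dusp1, dusp2, dusp5 and dusp14 were higher in both genotypes, and dusp3a, dusp8a, dusp10, dusp13a, dusp16 and spred2a were lower in both. In the step from 2 to 7 dpci, 5 genes were higher in mutants (11.4% of all genes) and 2 lower (10.5%), and in wild type 10 were higher (12.4%) and 1 lower (11%). The 10 in wild type were dusp1, dusp2, dusp3a, dusp5, dusp8a, dusp10, dusp16, spred1, spry1 and spry4, and dusp1, dusp10 and spry4 of them were also higher in mutants, where dusp1 was near the fold threshold (0.52) and lost its call without any 1 of 8 samples (0.48 to 0.49). spred1 in wild type was as near to it (0.50) and lost its call without any 1 of 7 samples (0.41 to 0.48), with RLE factors, with DESeq2 and without a filter on low counts. From 7 to 21 dpci 7 genes passed in mutants (29.8% of all genes) and 10 in wild type (37%). Here 2 genes were higher in mutants (12.8%) and 5 lower (17%), and 5 were higher (16.6%) and 5 lower (20.5%) in wild type. Set against 0 dpci, the mutant level at 21 dpci was higher for 5 genes (13.1%) and lower for 4 (6.92%), and the wild-type level was higher for 6 (13.4%) and lower for 1 (10%). dusp1 and dusp2 were among the higher genes in both genotypes. Of the 3 JNK and p38 phosphatases, all were lower at 21 than at 0 dpci in mutants, whereas in wild type dusp8a was higher and the others did not pass. These comparisons share the samples of each stage with their neighbours and with the genotype comparisons.

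Several stage calls that are counted here depended on 1 sample. At 2 against 0 dpci in wild type, dusp12 was lost without wild-type sample 1 at 0 dpci (0.43) or wild-type sample 2 at 0 dpci (0.58) or wild-type sample 2 at 2 dpci (0.21). In the same step dusp13a was lost without wild-type sample 2 at 0 dpci (−0.71) or wild-type sample 2 at 2 dpci (−0.72), and dusp3b without wild-type sample 1 at 0 dpci (−1.93) or wild-type sample 1 at 2 dpci (−2.27) or wild-type sample 2 at 2 dpci (−1.67). dusp22b in mutants was lost at 2 against 0 dpci without mutant sample 2 at 2 dpci (−0.44). At 7 against 2 dpci in wild type, dusp3a was lost without wild-type sample 2 at 2 dpci (0.71) or wild-type sample 1 at 7 dpci (0.67), dusp5 without wild-type sample 1 at 2 dpci (0.40) or wild-type sample 1 at 7 dpci (0.47) and spry1 without wild-type sample 1 at 2 dpci (0.56) or wild-type sample 2 at 2 dpci (0.69) or wild-type sample 2 at 7 dpci (0.56). In that step in mutants, dusp11 was lost without mutant sample 1 at 2 dpci (−0.47), dusp12 without mutant sample 2 at 2 dpci (−0.60) or mutant sample 1 at 7 dpci (−0.71) or mutant sample 2 at 7 dpci (−0.63) and dusp14 without mutant sample 2 at 2 dpci (1.02) or mutant sample 1 at 7 dpci (0.89). Calls at 21 against 7 dpci were lost in wild type for dusp11 without wild-type sample 2 at 7 dpci (−0.45) or wild-type sample 1 at 21 dpci (−0.40), for dusp23b without wild-type sample 2 at 7 dpci (0.35) or wild-type sample 1 at 21 dpci (0.51) or wild-type sample 2 at 21 dpci (0.52) and for dusp3a without wild-type sample 2 at 7 dpci (0.60). In mutants dusp14 was lost there without mutant sample 1 at 7 dpci (−0.80) or mutant sample 2 at 21 dpci (−0.73). At 21 against 0 dpci dusp11 in wild type was lost without wild-type sample 1 at 21 dpci (−0.49). dusp14 in mutants was lost in that comparison without mutant sample 2 at 0 dpci (1.5) or mutant sample 1 at 21 dpci (1.06), and dusp3a without mutant sample 1 at 0 dpci (0.39) or mutant sample 1 at 21 dpci (0.59) or mutant sample 2 at 21 dpci (0.54).

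**Figure D4:**
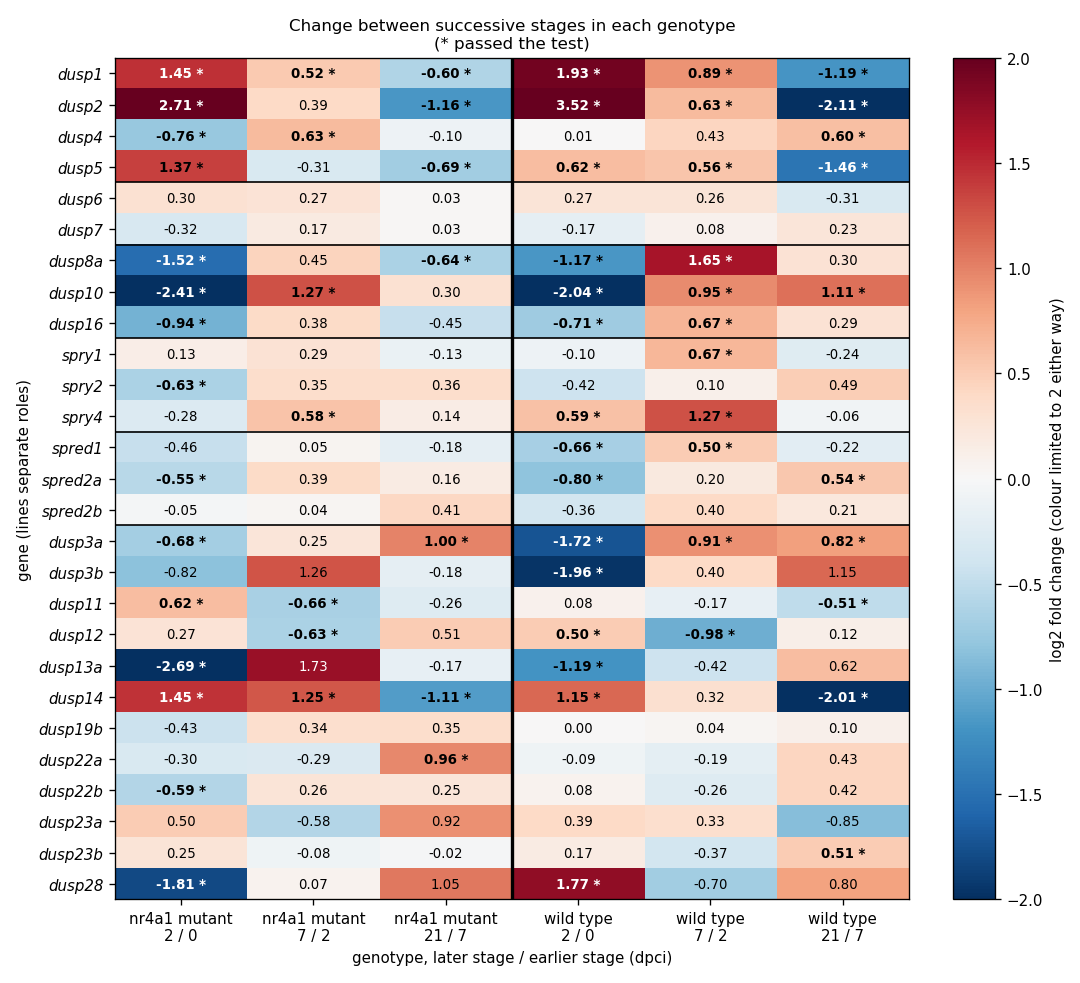
Log2 fold change between successive stages (2 over 0, 7 over 2 and 21 over 7 dpci) for the 27 genes in nr4a1 mutants (left 3 columns) and wild type (right 3 columns), with colour for the value and an asterisk where the gene passed the test. In both genotypes dusp1 and dusp2 are higher at 2 than at 0 dpci and lower at 21 than at 7 dpci. dusp8a, dusp10 and dusp16 are lower at 2 than at 0 dpci in both.

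The difference between genotypes itself was tested for a change from 0 dpci, at an adjusted p under 0.05 with no fold threshold. At 2 dpci it had changed for 11 of the 27 genes (34% of all genes), 4 upwards (17.2%) and 7 downwards (16.7%). At 7 dpci it had changed for 9 (23.6%), 1 upwards (11.8%) and 8 downwards (11.8%). The upward one was spred2a, with a change of 0.45 (SE 0.108, edgeR adjusted p = 0.00087). At 21 dpci it had changed for 13 (35.7%), 3 upwards (dusp5, dusp6 and dusp14, against 16.8%) and 10 downwards (18.9%). All 8 genes that were higher in uninjured mutants changed downwards at one injured stage or more. They are named here for their values at 0 dpci, which each change subtracts, so that count is only a description. dusp1, dusp4, dusp8a, spry4 and dusp28 changed downwards at all 3 injured stages. For dusp28 the call at 7 dpci (−2.81) was lost without mutant sample 2 at 7 dpci (−2.34) or wild-type sample 1 at 7 dpci (−2.35). The matching shares among all genes higher in uninjured mutants were not computed. The downward call for spred1 at 21 dpci (−0.22) was lost without any 1 of 14 samples (−0.23 to −0.15) and with DESeq2 (adjusted p = 0.111). The 3 tests share the samples of 0 dpci, so a low or high level there enters each of them.

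Of the other pathway lists, the ERK-responsive genes had the largest shares past the test at 0 and 21 dpci, but not at 2 and 7 dpci. Of all genes, 11.9% were higher in mutants and 11.8% lower at 0 dpci, and 8.35% and 8.5% at 2 dpci. At 7 dpci these shares were 7.03% and 5.94%, and at 21 dpci 9.49% and 6.83%. The median log2 fold change of all genes was 0.01, 0.02, 0.000274 and 0.02 at the 4 stages in turn. Of 25 ERK-responsive genes tested, 12 were higher in mutants at 0 dpci, with a median log2 fold change of 0.53. fosb, an AP-1 gene, held 1.71 and 1.36 CPM in mutant and 0.455 and 0.299 CPM in wild-type ventricles at 0 dpci, and fosl1a, another, held 8.4 and 7.45 CPM in mutant and 3.02 and 2.14 CPM in wild-type ventricles. At 2 dpci 6 were higher and 1 lower (median 0.20), with fosl1a at 1.21 (SE 0.0862, edgeR adjusted p = 3.79e-20). At 7 dpci 2 of 25 were lower (median −0.08), fosb at −1.13 (SE 0.143, edgeR adjusted p = 7.47e-10) and phlda1 at −0.79 (SE 0.212, edgeR adjusted p = 0.00272). At 21 dpci 7 were higher and 3 lower (median 0.26), with fosb at 1.52 (SE 0.155, edgeR adjusted p = 3.02e-13) and phlda1 at −1.44 (SE 0.204, edgeR adjusted p = 1.36e-08). Of 32 genes of the Ras, Raf, MEK and ERK cascade, 1 was higher at 0 dpci. It was map2k2a, a MEK gene, at 0.500221 (SE 0.0849, edgeR adjusted p = 9.21e-07), barely over the fold threshold. In this cascade 1 gene was higher and 1 lower at 2 dpci, and 2 were higher at 7 dpci. At 21 dpci 1 was lower, the adaptor gene gab1, at −0.54 (SE 0.0542, edgeR adjusted p = 1.07e-13). Of 16 JNK and p38 kinase genes, map3k5, a kinase that starts the stress cascade, was higher at 0 dpci with 110 and 102 CPM in mutant and 46.2 and 44.2 CPM in wild-type ventricles, and mapk9, a JNK gene, was lower, at −0.57 (SE 0.136, edgeR adjusted p = 0.000352). At 2 dpci mapk9 was higher, at 0.55 (SE 0.156, edgeR adjusted p = 0.00319). mapk10, another JNK gene, was higher at 2 dpci (0.97 (SE 0.39, edgeR adjusted p = 0.0431)) and at 7 dpci (1.15 (SE 0.351, edgeR adjusted p = 0.00881)). Of 15 FGF ligands, those past the test numbered 5 at 0 dpci (fgf24 and fgf13a upwards, fgf11a, fgf17 and fgf7 downwards), 3 at 2 dpci, 2 at 7 dpci (fgf13a upwards, fgf7 downwards) and 3 at 21 dpci (fgf11a, fgf7 and fgf18b, all downwards). At 0 dpci fgf24 held 0.237 and 0.341 CPM in mutants and 0.0827 and 0 in wild type, and fgf11a 0.0475 and 0 against 0.331 and 0.214. At 21 dpci fgf11a held 0.0495 and 0.253 CPM in mutants and 0.844 and 0.895 in wild type. These calls rested on few counts, and calls of pathway genes were not examined with a sample left out. The 3 at 2 dpci were fgf18a at 1.36 (SE 0.174, edgeR adjusted p = 7.68e-10), fgf13a at 1.26 (SE 0.482, edgeR adjusted p = 0.0319) and fgf7 at −2.75 (SE 0.493, edgeR adjusted p = 3.09e-06). Of 7 FGF receptors, fgfr3 was higher at 0 dpci with 3.56 and 3.8 CPM in mutant and 1.36 and 1.16 CPM in wild-type ventricles. It was also higher at 2 and 7 dpci, and fgfr1a was higher at 2 dpci. Of 12 EGF and ErbB ligands and receptors, erbb4b and btc were higher at 0 dpci, and 4 genes passed at 2 dpci (3 of them upwards), 2 at 7 dpci (erbb4b upwards, nrg1 downwards) and 4 at 21 dpci. The paired genes for a heparin-binding EGF ligand went opposite ways at 2 dpci, hbegfa being higher (0.84 (SE 0.0659, edgeR adjusted p = 3.07e-18)) and hbegfb lower (−1.01 (SE 0.087, edgeR adjusted p = 2.35e-16)). At 21 dpci hbegfb was higher, and hbegfa, the receptor gene erbb3a and nrg1 were lower. nrg1, the ligand neuregulin, stood at 0.941 and 0.961 CPM in mutant and 2.16 and 1.85 CPM in wild-type ventricles there.

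Markers of cell types moved between the same groups, and their part in these results was not tested. The summed level of 15 of 15 macrophage markers was 707 to 731 CPM in mutant and 573 to 576 CPM in wild-type ventricles at 0 dpci, and 1026 to 1048 CPM in mutant and 637 to 638 CPM in wild-type ventricles at 21 dpci. The sum of 11 of 12 cardiomyocyte markers was 101820 to 105086 CPM in mutant and 110725 to 113413 CPM in wild-type ventricles at 0 dpci, and 100033 to 100656 CPM in mutant and 117287 to 117295 CPM in wild-type ventricles at 21 dpci. For 13 of 13 epicardial and fibroblast markers it was 1018 to 1020 CPM in mutant and 1465 to 1500 CPM in wild-type ventricles at 0 dpci, and 3321 to 3323 CPM in mutant and 2772 to 2789 CPM in wild-type ventricles at 21 dpci. For 8 of 8 erythrocyte markers it was 1058 to 1064 CPM in mutant and 2033 to 2073 CPM in wild-type ventricles at 0 dpci, and 1448 to 1489 CPM in mutant and 1259 to 1265 CPM in wild-type ventricles at 21 dpci. Mutants thus lay above wild type in the macrophage sum and below it in the cardiomyocyte sum at both stages. Their sum of epicardial and fibroblast markers and their erythrocyte sum lay below wild type at 0 dpci and above it at 21 dpci. Sums also moved between stages. At 2 dpci the cardiomyocyte sum was 51862.3 to 53349.7 CPM in mutant and 63914.5 to 64662.6 CPM in wild-type ventricles. The macrophage sum there was 1883 to 1885 CPM in mutant and 1618 to 1635 CPM in wild-type ventricles. In both genotypes the cardiomyocyte and endothelial sums lay below those at 0 dpci, and the other sums lay above them. Their part in the stage steps was not tested. A sum is carried by its most abundant genes. Of the 11 cardiomyocyte markers, 1 was higher (nppb) and 1 lower (tnnc1a) at 0 dpci, with a median log2 fold change of 0.00158 and 6 above 0. At 21 dpci 2 were lower (nppb and tnnc1a), with a median of −0.23 and 3 above 0. Endothelial markers (11 of 11) summed to 2220 to 2257 CPM in mutant and 2297 to 2325 CPM in wild-type ventricles at 0 dpci, and to 1806 to 1829 CPM in mutant and 1938 to 1939 CPM in wild-type ventricles at 21 dpci. Neutrophil markers (11 of 12) summed to 256 to 274 CPM in mutant and 231 to 251 CPM in wild-type ventricles at 0 dpci, and to 215 to 216 CPM in mutant and 198 to 209 CPM in wild-type ventricles at 21 dpci. Taken gene by gene, 9 of the 11 were higher in mutants at 0 dpci (median log2 fold change 1.37), 7 at 7 dpci (median 1.12) and 6 at 21 dpci (median 0.73), while mmp9 was lower at 2 dpci. mpx, the myeloperoxidase gene, was higher at 0 dpci with a log2 fold change of 2.09 (edgeR adjusted p = 1.58e-22). Of the 15 macrophage markers, 6 were higher and 1 lower at 0 dpci and 9 were higher at 21 dpci. Of the 13 epicardial and fibroblast markers 5 were lower at 0 dpci (col1a1a, col1a2, fn1a, pdgfrb and postnb) and 3 higher at 21 dpci. At 0 dpci 4 of the 13 had log2 fold changes above 0. Among them was the epicardial marker tcf21, at 0.37 (edgeR adjusted p = 2.08e-05), under the fold threshold. Of the 8 erythrocyte markers 5 were lower at 0 dpci. At 21 dpci 0 of them passed the test, and 7 had log2 fold changes above 0. Among the endothelial markers 2 were higher (nfatc1 and flt1) and 1 lower (tek) at 0 dpci, and 1 was lower (flt1) at 21 dpci. Of all genes, 11.9% were higher in mutants and 11.8% lower at 0 dpci, and 9.49% were higher and 6.83% lower at 21 dpci. At 7 dpci 7.03% were higher, and at 2 dpci 8.5% were lower. Of the T-cell markers 4 of 9 were above the count minimum. These summed to 3.99 to 4.18 CPM in mutant and 2.11 to 2.31 CPM in wild-type ventricles at 0 dpci. At 21 dpci they summed to 5.36 to 5.99 CPM in mutant and 3.01 to 3.88 CPM in wild-type ventricles. Taken singly, 0 of these 4 genes passed at 0 dpci and 1 was higher at 21 dpci (zap70).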

How the data were processed

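Counts of reads per gene were used as the authors deposited them, without normalization, for 16 ventricle samples. The authors aligned reads with STAR and counted them with featureCounts after FastQC, and the submitters' processing notes name the build GRCz11 (danRer11). Versions, annotation, strand setting and treatment of reads with several alignments are not given in the sources used here. The methods mention batch effects without naming a batch.

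In R 4.3.3, 18949 of 31351 listed genes had 10 counts or more in 2 samples or more and were tested. Libraries were scaled by TMM. The edgeR 4.0.16 quasi-likelihood model (glmQLFit, glmQLFTest) had 1 coefficient for each condition and took in all samples. The thresholds, 0.05 for the adjusted p and 0.5 for the absolute log2 fold change, are those of the study, which used DESeq2. Its fit accounted for batch effects, and no batch entered the model here. More genes passed between genotypes here than the study reported, at every stage and in both directions. The shares of all genes given above are those of the edgeR fit. Alternatives were DESeq2 1.42.0, RLE factors, other filters, glmTreat, each stage fitted alone, sample number as a block and each sample left out. The steps were checked on simulated counts. Samples were grouped by their labels. The labels name no pairing of samples across conditions. Deviations of like-numbered samples correlated between −0.0307 and 0.0321 over 28 pairs of conditions, so no shared effect of the sample number was seen. Such values cannot show that like-numbered samples were handled apart. Count ratios of genes with few counts have 95% exact binomial intervals, which cover counting error only.

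The genes, the pathway and marker lists, the tests and the rule for naming genes were chosen with earlier results of these data known. Values in every sample are given for genes that passed between genotypes at 2 or more stages, or at 1 with an absolute log2 fold change over 1, and for the 3 highest and 3 lowest that passed in each successive wild-type stage comparison, with a mean of at least 1 CPM in 1 condition. Values of dusp6, dusp22b and spred1 were added after they had been seen. Of each pathway list up to 3 genes per comparison could be named. A gene listed as DUSP26 in capitals falls outside the symbol rule. In RefSeq for GRCz12tu, used for names and neighbours only, all 27 symbols matched and 8 (dusp8a, dusp10, dusp13a, dusp14, dusp19b, dusp23b, spred2a, spred2b) overlapped another gene.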

Additional observations from a re-analysis of the deposited data

Results flagged for a closer look

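For 18 of the 27 genes the mutant to wild-type difference at an injured stage differed from that at 0 dpci by the test of this change in edgeR, and the widest such change of each is given here as the later log2 fold change minus that at 0 dpci. At 21 dpci it was −2.49 for dusp8a, −1.26 for dusp4, −1.26 for dusp16 and −0.86 for dusp10. Upward changes that were widest at that stage were those of dusp14 (2.12) and dusp6 (0.38), while dusp7 moved by −0.26. At 7 dpci the values were −1.56 for spry4, −1.05 for dusp2, −0.85 for dusp1, −0.25 for spred1 and 0.45 for spred2a. At 2 dpci they were −3.58 for dusp28, 1.04 for dusp3a, 0.74 for dusp5, −0.66 for dusp22b, 0.54 for dusp11 and 0.32 for spred2b. The call for dusp11 was lost without mutant sample 1 at 2 dpci (0.34). That for spred2b was lost without any 1 of 6 samples (0.27 to 0.34) and with DESeq2 (adjusted p = 0.0917), and that for spred1 without any 1 of 6 samples (−0.24 to −0.18), with RLE factors, without a filter and with DESeq2 (adjusted p = 0.124). The losses for dusp2, dusp3a, dusp7 and dusp14 are given with these genes above. The 18 genes are those past at least 1 of the 3 tests, and the share of all genes past at least 1 was not computed. Taken singly, the tests at 2, 7 and 21 dpci were passed by 11, 9 and 13 of the 27 genes. Of all genes, 34%, 23.6% and 35.7% passed them in turn. The 2 samples of a condition were too few for a search for one far from the others, and the biological coefficient of variation between them ran from 2.1% to 4.79% over the 8 conditions.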

How the results depend on the processing

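No call for these genes changed direction under the alternatives run. Of 135 calls, those lost were 14 with DESeq2 (1 more had no adjusted p there), 3 with RLE factors, 7 without a filter on low counts and 47 of the 102 that have a fold threshold when glmTreat tested that threshold within the model. The calls lost with DESeq2 were dusp13a and dusp28 (0 dpci) and dusp3b (7 dpci) between genotypes. Between stages they were dusp12 and dusp13a (2 against 0 dpci), spred1 (7 against 2) and dusp23b (21 against 7) in wild type, and dusp12 (7 against 2) and dusp3a (21 against 0) in mutants. Among changes from 0 dpci they were dusp3a and spred2b at 2 dpci, spred1 at 7 dpci, and spred1 and dusp7 at 21 dpci. A fit of each stage alone lost 1 call, dusp3b at 7 dpci. With glmTreat the genes that passed between genotypes numbered 4 at 0 dpci, 0 at 7 dpci, 1 at 21 dpci and 1 in the average of stages, against 9, 3, 4 and 2 in edgeR's quasi-likelihood test. For stages they numbered 1 at 7 against 2 dpci and 4 at 21 against 7 dpci in mutants, and 9 at 2 against 0 dpci, 5 at 7 against 2 dpci and 5 at 21 against 7 dpci in wild type. A minimum of 50 counts in 2 samples removed dusp3b, dusp13a, dusp14, dusp23a and dusp28, so their calls could not be made. All 112 calls of the remaining genes were kept. This filter left 1 gene at 2 dpci and 0 in the average. Fewer genes were tested there. Leaving out 1 sample at a time gave ranges of 6 to 10, 2 to 4, 1 to 3 and 4 to 5 genes between genotypes from the first to the last stage. The count of 1 was without mutant sample 2 at 7 dpci. For mutants at 7 against 2 dpci the range was 4 to 7, the lowest without mutant sample 1 at 7 dpci. No shared effect of the sample number was seen. With sample number as a replicate block 1 call was lost, dusp12 in wild type at 2 against 0 dpci (0.49), while 9, 3, 3 and 4 genes passed between genotypes at the 4 stages. Low counts limit dusp3b, dusp13a, dusp14, dusp23a and dusp28 most, since 1 count is worth 0.0413 to 0.0633 CPM.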
